A study of Homo sapiens with 36 samples.

Results

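The genes described here encode the T-cell receptor, its CD3 partners and the proteins that carry its signal, measured in Jurkat cells, a line of human leukaemic T cells. The list holds 45 names, of which CD45 and PTPRC are one gene, so 44 genes were followed out of 74628 in the table of counts. The list was given by gene name, with earlier results of these data known, and was sorted into 6 roles: 8 receptor chains, 9 coreceptors and surface receptors, 6 kinases, 11 adaptors and exchange factors, 5 genes of the NF-kB branch and NFAT, and 5 negative regulators. All cells carried dCas9-VP64, a nuclease-dead Cas9 joined to an activation domain, together with mCherry, and all took up a lentiviral guide vector and went through 3 days of puromycin. The vector held a guide against RELA (sgRELA) or a non-targeting guide (sgControl), and RNA was taken on day 5, 6 or 7 after transduction. This gave 6 groups of guide and day with 3 biological replicates each, and according to the labels every condition was transduced in triplicate. The labels do not say whether same-numbered samples of different days came from 1 transduction. P-values measure the spread between these samples of 1 cell line. As far as the labels say, each guide name is 1 guide, so what follows the guide is not separated from what follows RELA, and untransduced cells were not analysed here. Each of the 18 RNA samples gave 2 RamDA-seq libraries, each from 100 pg of total RNA, by a protocol that reads full-length total RNA, and the counts of both were added.

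A T cell recognises antigen through an alpha and a beta chain, which have no signalling tail and travel to the surface with CD3 gamma, delta, epsilon and zeta chains. On engagement the kinase LCK phosphorylates the tails of the CD3 and zeta chains, ZAP70 docks there and phosphorylates the scaffolds LAT and SLP-76, and from these scaffolds the signal runs to calcium and NFAT, to Ras, and through protein kinase C theta, BCL10 and MALT1 to NF-kB, the family to which the RELA protein belongs. Jurkat cells have long served as the standard line for dissecting this pathway.

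The 36 libraries held 7586205 to 16124473 counts, and the 18 sums per RNA sample 18769530 to 29503934. The 44 genes together took 0.562% to 0.825% of the counts of a library, and mitochondrial genes 6.38% to 10.9%. With counts added over days, RELA itself stood at 27.2 ± 2.77 CPM with sgControl and at 209.5 ± 12.9 CPM with sgRELA (SD, n = 3 sums each), where CPM are counts scaled to the library total (with edgeR's TMM factors). The T-cell label was checked against 8 marker genes, CD3D, CD3E, CD3G, CD247, TRAC, CD2, CD7 and LCK, all of them members, and each had at least 521 counts in every RNA sample. Among the B-cell markers CD79A averaged 38.0 CPM and MS4A1, CD79B and PAX5 at most 0.203 CPM, and of 5 myeloid markers only CD68 was above 0.771 CPM. These means are over both guides, and CD79A differed between the guides, as given further on. The erythroid genes HBA1 and HBB, the epithelial gene EPCAM and the fibroblast gene COL1A2 had no count in any RNA sample. Of the other markers, NCAM1, KLRD1 and NKG7 averaged 4.16, 2.35 and 4.12 CPM and COL1A1 6.04 CPM.

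One library stood apart from the others of its group, library 1 of sgControl day 6 replicate 1. TRBC1 had 1113 CPM in it against 468 to 521 CPM in the other 5 libraries of its group, and PTPRC had 591 CPM against 1241 to 1350.0 CPM. These CPM of single libraries were scaled to the library total alone, without TMM factors. The library was kept, and the members whose calls change without it are named beside each comparison, an alternative added after seeing the data. The library was singled out by the values of these members, so results without it are not independent of that choice. Between the 2 libraries of one RNA the members' SD of log2(CPM + 1) had a median of 0.226, and between replicates after adding the libraries 0.131. The labels name no batch, and a batch that went with the harvest day cannot be told apart from the day.

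Per kilobase of exon, the highest levels were those of TRBC1, CD3D and LCK. To compare genes, CPM were divided by the union exon length in GENCODE v29. Unless stated, the values in this and the next paragraph are means ± SD over all 18 RNA samples in CPM per kilobase. The order depends on the annotated lengths, such as 0.929 kilobases for CD3D and 3.836 for CD3G. Before this division PTPRC (1130 CPM) and LCK (748 CPM) stood highest, and CD3G (412 CPM) lay above CD3D (368 CPM). TRBC1, one of the 2 constant genes of the beta chain (chr7:142791694-142793368, plus strand, GRCh38), stood first with 760.1 ± 144, followed by CD3D, the CD3 delta chain, with 396 ± 71.6. TRBC1 lay above 99.9% of the 23312 tested genes that had a length. Next among the chains came CD3E with 154 ± 15.1, TRBC2 with 139 ± 46.5, CD3G with 107 ± 27.4 and TRAC, the constant gene of the alpha chain, with 77.3 ± 25.5. CD247, which encodes the zeta chain, had 22.1 ± 2.83, and TRAT1, an adaptor bound to the receptor, 8.67 ± 2.22. The beta constant genes TRBC1 and TRBC2 are near copies, and how reads that match both were counted is not given in the sources used here, so their separate levels are uncertain. Over the coding part their GENCODE v29 transcripts were identical at 95.5% of aligned positions, and after it at 49.6%. The first 120 bases of both are shown because they differ at only 5 positions, in capitals, so a short read there may match both:
TRBC1: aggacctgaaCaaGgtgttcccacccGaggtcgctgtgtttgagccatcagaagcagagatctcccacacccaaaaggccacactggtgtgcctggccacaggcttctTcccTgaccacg
TRBC2: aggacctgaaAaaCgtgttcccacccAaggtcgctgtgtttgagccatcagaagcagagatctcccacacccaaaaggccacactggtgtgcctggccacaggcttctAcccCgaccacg

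Among the kinases, LCK stood highest with 224 ± 45.4 CPM per kilobase and ZAP70 next with 61.7 ± 8.41. CSK, the kinase that restrains LCK and FYN, had 23.6 ± 5.05, PRKCQ, which encodes protein kinase C theta, 17.9 ± 2.89, and FYN 10.8 ± 1.22. TXK, a kinase of the Tec family, was the lowest member with 4 to 159 counts per RNA sample. PTPRC, the CD45 phosphatase that opens LCK for activity, led the surface receptors with 123 ± 16.9, while CD2, CD1D, CD5 and CD28 lay between 16.2 and 22.4. CD4, the coreceptor for MHC class II, had 3.39 ± 1.17, and CD69, an early activation antigen, 2.52 ± 0.866. Adaptors spanned 4.44 for PAG1, which anchors CSK to the membrane, to 39.1 for SH2D1A, the SLAM-receptor adaptor SAP. LAT had 13.5 ± 1.70 and LCP2, which encodes SLP-76, 12.1 ± 3.50. The NF-kB branch and NFAT genes ran from 3.41 for MALT1 to 17.2 for NFATC3, and the negative regulators from 3.61 for CBLB to 14.5 for PTPN6. The median tested gene had 2.67, and all members but CD69 and TXK exceeded it. In this order the ranges of neighbouring genes over the 18 RNA samples overlapped except between TRBC1 and CD3D, between CD3D and LCK, and between ZAP70 and SH2D1A. Exons of LAT, LCP2, PLCG1, RASGRP1, SH2D1A, BCL10, MALT1, NFATC3 and PTPN22 overlap another annotated gene, and part of their counts may belong to it. For LAT, PLCG1, SH2D1A and NFATC3 some of the overlap is on the same strand. For overlaps on the opposite strand this depends on the strand setting of the counting, which is not given in the sources used here. Overlapped were 49.7% of the exon bases of LAT, 36.3% of those of NFATC3 and at most 9.24% in the others.

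**Figure D1:**
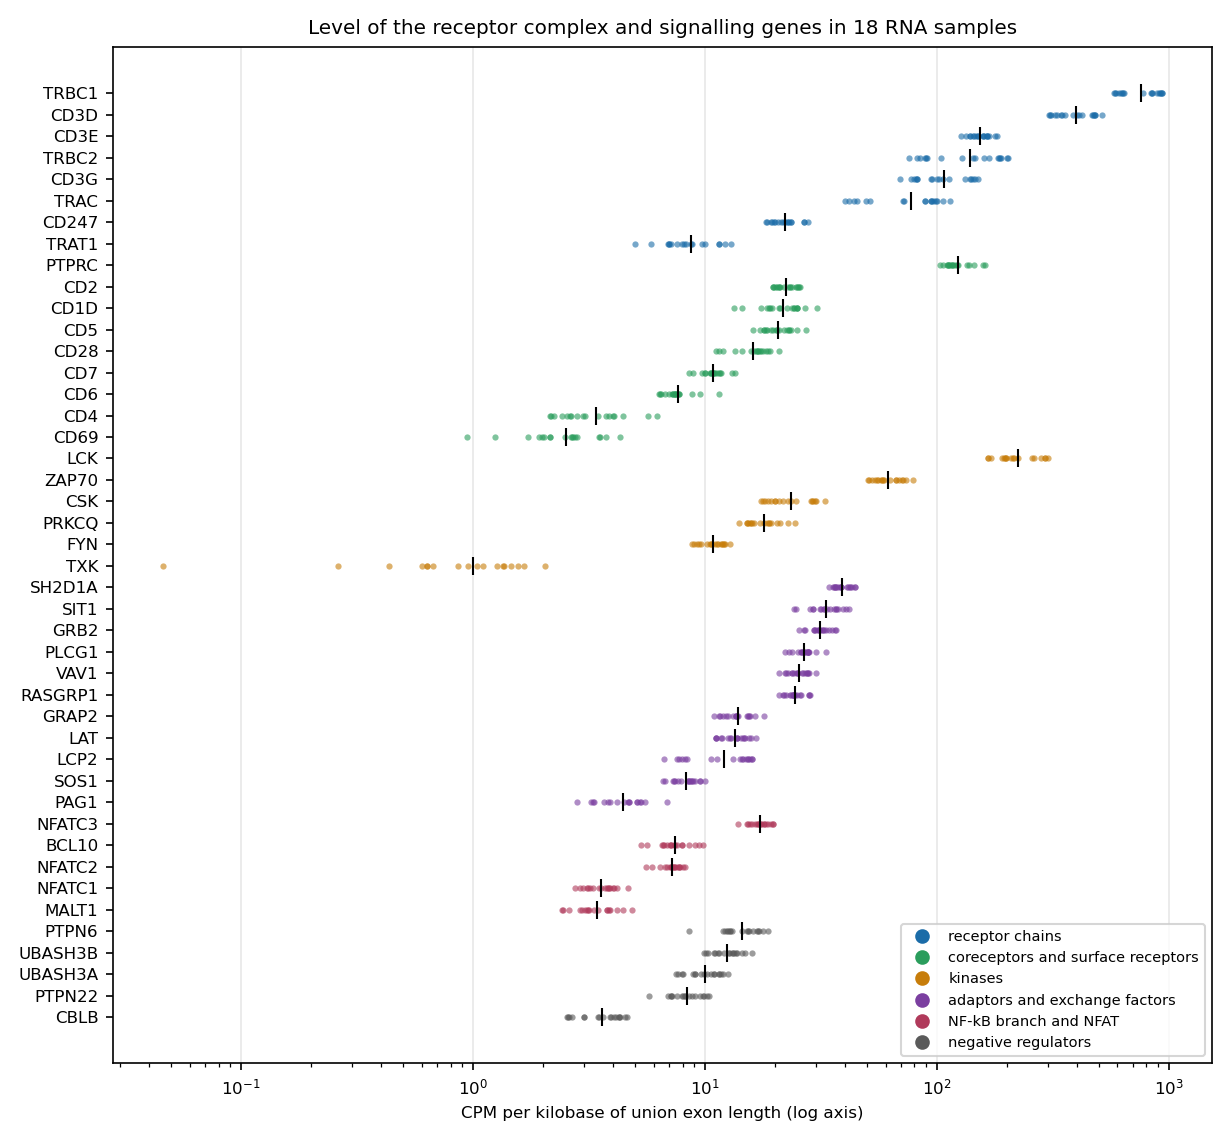
Level of each of the 44 genes in the 18 RNA samples, in CPM per kilobase of union exon length on a log axis, grouped by role. Points are RNA samples and vertical bars are their means: TRBC1 and CD3D lie to the right of all others, and TXK reaches lowest.

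The first question was whether the guide against RELA moved these genes. Counts were added over both libraries and the 3 days, which gave 3 sums per guide, and a call means that edgeR's quasi-likelihood test, adjusted over all 28888 genes tested, gave a p under 0.05. CD28, the costimulatory receptor for CD80 and CD86 (chr2:203706475-203738912, plus strand), was the only member called, and it was higher in sgRELA. That is 1 of 44, against 0.363% called among all tested genes and 0.242% called higher. Its level was 69.8, 68.2 and 73.6 CPM in the sgControl sums and 91.2, 87.2 and 84.4 CPM in the sgRELA sums. The 3 sgRELA sums were all above the 3 sgControl sums. The log2 difference was 0.31 ± 0.06 (SE), adjusted p 0.0177, a 1.24-fold level. In bulk RNA, fewer cells that express a gene and less of its RNA per cell cannot be told apart. The CD28 difference missed the threshold without sgControl replicate 1 (adjusted p 0.0749), sgControl replicate 2 (0.128), sgRELA replicate 1 (0.154) or sgRELA replicate 2 (0.0934), and with only the first (0.615) or only the second library of each RNA (0.0555). Without the library that stands apart it was 0.29 ± 0.06 (SE), adjusted p 0.037.

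On the separate days, tested in one model over all 18 RNA samples and 27553 genes, CD28 was again the only member called, and only on day 6. The sgControl samples of that day had 54.3, 58.6 and 56.2 CPM and the sgRELA samples 89.2, 82.8 and 84.2 CPM, with no overlap and a log2 difference of 0.60 ± 0.11 (SE), adjusted p 0.00657. The day 6 count of 1 of 44 stood against 0.214% of all tested genes, 0.152% in this direction. Without sgRELA replicate 1 the CD28 call was lost, with an adjusted p of 0.104, as it was with only the first (0.761) or only the second library of each RNA (0.0709), and without the library that stands apart it held at 0.56 ± 0.11 (SE), adjusted p 0.00727. On day 5 the sgControl values were 70.4, 65.6 and 84.8 CPM and the sgRELA values 93.5, 77.3 and 87.0 CPM. On day 7 they were 82.5, 80.7 and 79.4 and 91.4, 102 and 81.5 CPM, and on both of these days the guides overlapped. The sgControl samples were thus lowest on day 6, and the sgRELA samples stayed within one range over the 3 days. The guide by day interaction for CD28 had an unadjusted p of 0.0223 and an adjusted p of 1.

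The start of CD28 is shown because it is the one member called between the guides, and those of CD3D and LCK because both rose over the days, as described further on. The sequences are RefSeq promoter windows on GRCh38.p14, limited to the bases before the first GENCODE v29 exon: chr2:203706389-203706474 on the plus strand for CD28, chr11:118342745-118342955 on the minus strand for CD3D and chr1:32251015-32251238 on the plus strand for LCK, the upstream one of its windows. Capitals mark GGAA, the core of ETS sites, or TTCC, its form on the other strand, and in LCK also the 1 match to the kB consensus, the binding motif of NF-kB dimers. Another LCK window, chr1:32273871-32274110 on the plus strand, is not shown and held no kB match. ZAP70 and CSK rose over the days as well, and their windows, not shown, held no kB match. CD28 held 1 GGAA core in its 86 bases, CD3D 4 in 211 and LCK 2 in 224.
CD28: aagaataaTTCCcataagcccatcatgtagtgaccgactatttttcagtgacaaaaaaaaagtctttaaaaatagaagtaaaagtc
CD3D: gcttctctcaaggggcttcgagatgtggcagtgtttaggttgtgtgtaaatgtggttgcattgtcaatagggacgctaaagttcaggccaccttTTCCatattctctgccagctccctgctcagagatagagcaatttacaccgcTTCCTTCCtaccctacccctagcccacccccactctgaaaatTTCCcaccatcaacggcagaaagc
LCK: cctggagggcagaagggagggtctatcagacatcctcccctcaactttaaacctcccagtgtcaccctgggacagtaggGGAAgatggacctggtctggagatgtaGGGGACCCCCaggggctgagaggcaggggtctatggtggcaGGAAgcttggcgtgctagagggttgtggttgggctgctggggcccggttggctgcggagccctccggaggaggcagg
Of the 44 genes, 32 had an entry, with 49 windows of 250 bases before a start. The kB consensus, searched by its name on both strands, was present in 7 of the 49, or 14.3%, against 9.96% of 35116 windows of all genes, and the 7 belonged to CBLB, FYN, LCK, NFATC1, PLCG1, TRAT1 and UBASH3B. GGAA was present in 95.9% of the members' windows and 92.7% of all, GGAAA, which contains GGAA and is the core of NFAT sites, in 59.2% and 55.6%, and CANNTG, the E-box, in 63.3% and 61.8%. These matches describe the letters in the windows and were not tested against the counts.

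No other member was called between the guides. Across days, 9 of 44 had an unadjusted p under 0.05, all higher in sgRELA, against 6.74% of all tested genes. After CD28 the smallest p values were those of PTPRC, at 0.13 ± 0.03 (SE), adjusted p 0.0896, and LCK, at 0.12 ± 0.03 (SE), adjusted p 0.208. The PTPRC sums were 1046, 1063 and 1104 CPM for sgControl against 1194, 1149 and 1171 CPM for sgRELA. The LCK sums were 726, 715 and 716 CPM for sgControl against 788, 776 and 773 CPM for sgRELA. In both genes the sums of the 2 guides did not overlap, yet the differences missed the threshold. The sums did not overlap for 10 of the 44 genes, 9 of them higher in sgRELA (CD4, CD7, CD28, CD69, PTPRC, LCK, GRB2, PTPN6 and PTPN22) and PLCG1 lower, against 12.3% of all tested genes. Of the 44 log2 fold changes, 33 were above 0, with a median of 0.06, where 49.6% of all tested genes were above 0. All 9 surface receptors and all 8 receptor chains had values above 0, and 7 of the 8 chains reached at most 0.07 while TRAT1 had 0.29 ± 0.11 (SE), adjusted p 0.598. The B-cell markers summed to 16.7 to 26.2 CPM in sgControl and 48.5 to 62.8 CPM in sgRELA, nearly all from CD79A, while MS4A1, CD79B and PAX5 each averaged at most 0.203 CPM over the 18 RNA samples. Their part in the result was not tested.

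**Figure D2:**
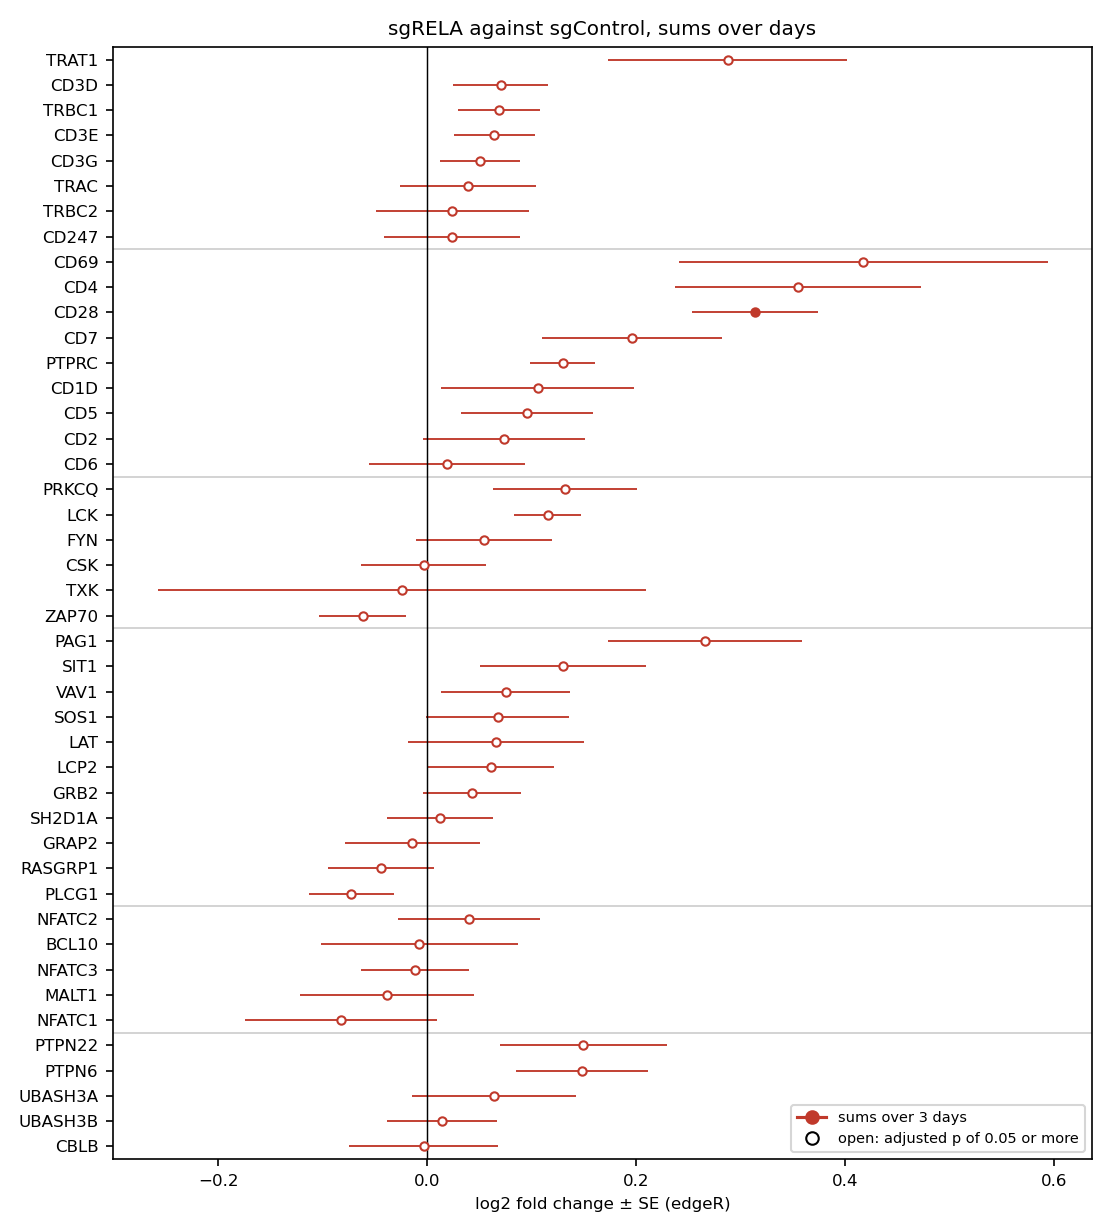
Log2 fold change of sgRELA against sgControl for each member, from 3 sums over days per guide, with 1 SE on either side and members grouped by role. The filled point, CD28 at 0.31, is the only one with an adjusted p under 0.05, and 33 of the 44 points lie above 0.

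Day by day, with all libraries, edgeR called no member between the guides other than CD28. On day 5, 0 members were called by edgeR or by DESeq2, against 0.138% of all tested genes, and 2 had an unadjusted p under 0.05, against 5.96%. The smallest p values on day 5 belonged to PAG1 (0.42 ± 0.16 (SE), adjusted p 0.737), CD4 (0.46 ± 0.19 (SE), adjusted p 0.751) and CD28 (0.22 ± 0.11 (SE), adjusted p 0.846). On day 7, 0 members were called by either tool, against 0.0907% of all genes, and 2 had an unadjusted p under 0.05, against 4.68%: MALT1, the paracaspase of the NF-kB branch (-0.38 ± 0.15 (SE), adjusted p 0.986), and CD69 (0.64 ± 0.30 (SE), adjusted p 1). LCK came next with 0.15 ± 0.09 (SE), adjusted p 1. On day 6, 9 members had an unadjusted p under 0.05, all higher in sgRELA, against 6.07% of all genes, and DESeq2 called 4. The next smallest after CD28 were PTPRC (0.29 ± 0.07 (SE), adjusted p 0.119), LCP2 (0.36 ± 0.10 (SE), adjusted p 0.322) and PRKCQ (0.39 ± 0.12 (SE), adjusted p 0.332). The sgControl mean of PTPRC was 1156 ± 160 CPM, and 1264 ± 37.0 CPM without the library that stands apart. The sgRELA mean was 1414 ± 77.8 CPM, so the PTPRC difference is smaller without that library. Leaving out the library that stands apart added 1 call, TRBC1: its day 6 difference of 0.17 ± 0.09 (SE), adjusted p 0.85 became 0.36 ± 0.06 (SE), adjusted p 0.000373, which passed the threshold, with a mean of 483 ± 2.08 CPM in sgControl and sgRELA samples at 641, 636 and 589 CPM. Of all tested genes 0.273% were called in that fit. TRBC1 was among the genes by which this library was singled out, so its small spread and p value there are not independent of that choice. An interaction between guide and day was called for 0 members by edgeR and by DESeq2, with 5 at an unadjusted p under 0.05 (CD28, PTPRC, PRKCQ, LCP2 and GRAP2), against 4.69% of all genes, and called for 0.00363% of all genes. The smallest were LCP2 (unadjusted p 0.0112), CD28 (0.0223) and GRAP2 (0.0367).

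More members were called between harvest days than between guides. In this and the following paragraphs the shares of all tested genes are not matched to the members' levels. In CPM per kilobase all members but CD69 and TXK lay above the median tested gene. Between day 5 and day 7, 15 of 44 members were called in sgControl, 12 higher and 3 lower on day 7, against 13% of all tested genes called, 6.65% higher and 6.36% lower. In sgRELA 15 were called as well, 11 higher and 4 lower, against 12.4%, 6.35% and 6.06%. Of the 15 in each guide, 11 were shared, which is 73.3% of each list, and all 11 had the same direction. TRAC, TRBC1, TRBC2, CD3D, CD3G, LCK, ZAP70, CSK and LCP2 were higher on day 7, and CD4 and CBLB lower. The median log2 fold change of the 44 was 0.06 in sgControl and 0.13 in sgRELA, where the medians of all tested genes were -0.01 and -0.01. Whether these day effects differ between the guides is what the interaction tested, and no member was called there. Without the library that stands apart the sgControl count stayed at 15 and the sgRELA count was 20, with 13 shared. Of all tested genes 14.1% in sgControl and 13.7% in sgRELA were then called. The 5 added in sgRELA were CD3E, given further on, TRAT1 (0.57 ± 0.19 (SE), adjusted p 0.0512, against 0.56 ± 0.19 (SE), adjusted p 0.0481, without it), CD5 (-0.36 ± 0.13 (SE), adjusted p 0.058, against -0.37 ± 0.12 (SE), adjusted p 0.0298), GRAP2 (0.34 ± 0.12 (SE), adjusted p 0.0525, against 0.34 ± 0.11 (SE), adjusted p 0.04) and PTPN6 (0.38 ± 0.13 (SE), adjusted p 0.0536, against 0.38 ± 0.12 (SE), adjusted p 0.0341), and TRAT1 and PTPN6 were then called higher in both guides. Over the same days the myeloid markers, mostly CD68, summed to 28.2 to 34.5 CPM on day 5 and 19.9 to 24.8 CPM on day 7 in sgControl, and to 32.9 to 38.8 CPM and 21.2 to 23.3 CPM in sgRELA, and CD14, LYZ, ITGAM and CSF1R averaged at most 0.771 CPM. CD68 was called lower on day 7 in both guides (-0.57 ± 0.15 (SE), adjusted p 0.0104, in sgControl and -0.78 ± 0.15 (SE), adjusted p 0.000625, in sgRELA), as was NCAM1, 1 of the 3 natural killer markers tested (-1.29 ± 0.40 (SE), adjusted p 0.0271, and -1.36 ± 0.40 (SE), adjusted p 0.0207). The 4 natural killer markers summed to 9.42 to 14.2 CPM on day 5 and 4.97 to 9.36 CPM on day 7 in sgControl, and to 8.73 to 20.1 CPM and 7.63 to 9.86 CPM in sgRELA. COL1A1, the 1 fibroblast marker tested, was called lower in sgRELA (-1.21 ± 0.33 (SE), adjusted p 0.0113) and had -0.16 ± 0.32 (SE), adjusted p 0.834, in sgControl. The fibroblast markers summed to 4.62 to 6.05 CPM and 4.19 to 4.86 CPM in sgControl and to 4.08 to 9.22 CPM and 1.95 to 4.06 CPM in sgRELA. The part of these markers in the result was not tested.

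**Figure D3:**
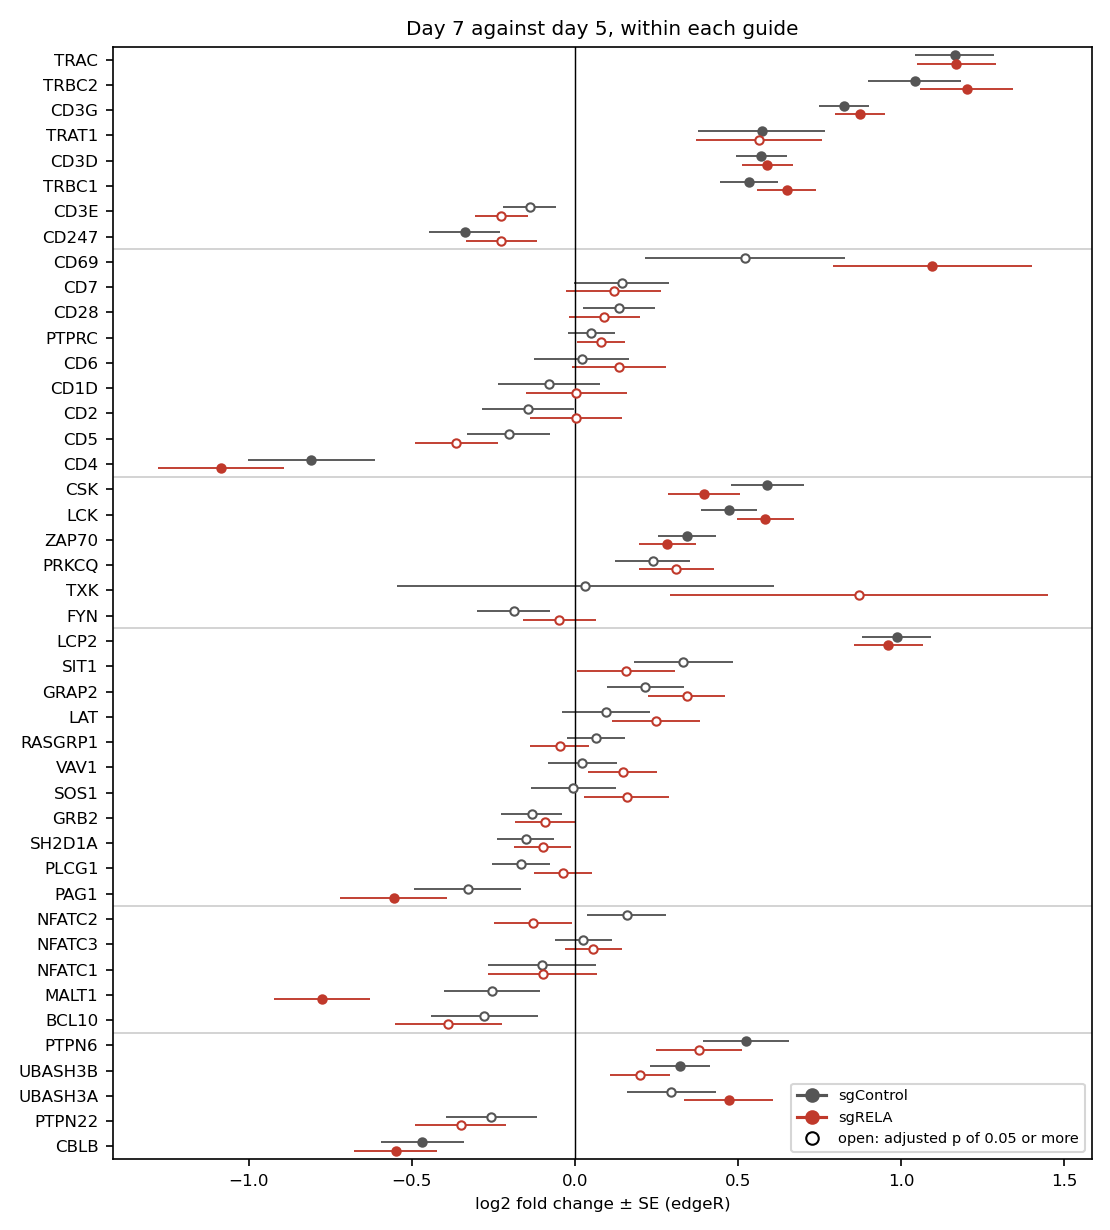
Log2 fold change of day 7 against day 5 for each member, in sgControl (grey) and sgRELA (red), with 1 SE on either side and members grouped by role. Filled points have an adjusted p under 0.05; TRAC and TRBC2 lie above 1 in both guides, and CD4 lies lowest at -0.81 and -1.09.

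Of the members called higher, TRAC and TRBC2 had the largest log2 differences between days 5 and 7 in both guides. In sgControl, TRAC (chr14:22547506-22552154, plus strand) had 40.8, 48.2 and 44.0 CPM on day 5, 92.2, 69.5 and 70.1 CPM on day 6, and 95.0, 111 and 91.8 CPM on day 7. The sgRELA samples had 42.8, 50.1 and 39.2 CPM on day 5, 93.2, 86.5 and 86.3 CPM on day 6, and 103, 96.5 and 97.6 CPM on day 7. In both guides every day 6 and day 7 sample was above every day 5 sample, while days 6 and 7 overlapped in sgControl and did not in sgRELA. Day 7 against day 5 gave 1.16 ± 0.12 (SE), adjusted p 4.19e-08, in sgControl and 1.17 ± 0.12 (SE), adjusted p 4.23e-08, in sgRELA. The step from day 5 to day 6 was already 0.80 ± 0.12 (SE), adjusted p 3.91e-05, in sgControl and 1.01 ± 0.12 (SE), adjusted p 1.27e-06, in sgRELA. From day 6 to day 7 TRAC rose in sgControl (0.36 ± 0.12 (SE), adjusted p 0.0369), and the sgRELA value, which was not called, was 0.16 ± 0.12 (SE), adjusted p 0.5.

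TRBC2 (chr7:142801041-142802748, plus strand) had 67.4, 69.0 and 62.1 CPM on day 5, 152, 97.5 and 78.6 CPM on day 6, and 141, 141 and 127 CPM on day 7 in sgControl. The corresponding sgRELA values were 68.1, 57.5 and 63.8 CPM on day 5, 121, 110.3 and 109 CPM on day 6, and 139, 143 and 153 CPM on day 7. All day 5 samples lay below all later ones, and the high day 6 sgControl sample is the RNA with the library that stands apart. The day 7 against day 5 difference was 1.04 ± 0.14 (SE), adjusted p 3.95e-06, in sgControl and 1.20 ± 0.14 (SE), adjusted p 4.02e-07, in sgRELA. TRBC1, at a much higher level, had 448, 476 and 463 CPM on day 5, 692, 485 and 482 CPM on day 6, and 645, 675 and 688 CPM on day 7 in sgControl. In sgRELA its values were 439.6, 471 and 443 CPM on day 5, 641, 636 and 589 CPM on day 6, and 709, 705 and 709.7 CPM on day 7. Day 7 exceeded day 5 in every sample of both guides, by 0.53 ± 0.09 (SE), adjusted p 8.27e-05, in sgControl and 0.65 ± 0.09 (SE), adjusted p 4.79e-06, in sgRELA. On day 6 the sgControl samples other than replicate 1 lay just above day 5, and the sgRELA samples lay between day 5 and day 7. With that library left out, TRBC1 changed in sgControl by 0.07 ± 0.06 (SE), adjusted p 0.564, from day 5 to day 6 and by 0.47 ± 0.06 (SE), adjusted p 1.2e-07, from day 6 to day 7. That library was singled out by TRBC1 among other genes, so these p values are not independent of the choice.

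The 3 CD3 genes lie side by side on chromosome 11, CD3E at chr11:118304545-118316175 on the plus strand, CD3D at chr11:118338954-118342744 on the minus strand and CD3G at chr11:118344344-118355161 on the plus strand, but between days 5 and 7 only CD3D and CD3G were called. CD3G, the gamma chain, had 266, 315 and 311 CPM on day 5, 430.3, 364 and 361 CPM on day 6, and 539, 533 and 506 CPM on day 7 in sgControl. With sgRELA the values were 297, 316 and 306 CPM on day 5, 385, 405 and 389.8 CPM on day 6, and 574, 561 and 549 CPM on day 7. The 3 days did not overlap in either guide. CD3G rose by 0.82 ± 0.08 (SE), adjusted p 5.38e-09, from day 5 to day 7 in sgControl and by 0.87 ± 0.08 (SE), adjusted p 1.62e-09, in sgRELA, and it was called in all 6 comparisons of days. CD3D had 317, 287 and 282 CPM on day 5, 374, 307 and 330.0 CPM on day 6, and 432, 442 and 445 CPM on day 7 in sgControl. Its sgRELA values were 299.6, 322 and 285 CPM on day 5, 381, 393 and 359.9 CPM on day 6, and 447, 480.1 and 437 CPM on day 7. Day 7 was above both earlier days in every sample, with a change from day 5 of 0.57 ± 0.08 (SE), adjusted p 3.86e-06, in sgControl and 0.59 ± 0.08 (SE), adjusted p 2.64e-06, in sgRELA. CD3E, the epsilon chain, had 380.0, 476 and 429 CPM on day 5, 518, 447 and 450.2 CPM on day 6, and 359.6, 395 and 412 CPM on day 7 in sgControl. In sgRELA it had 468, 508 and 453 CPM on day 5, 467, 468 and 427 CPM on day 6, and 396, 407 and 419.8 CPM on day 7. In sgControl day 7 lay below day 6 and overlapped day 5, and in sgRELA day 7 lay below both earlier days. Its day 7 against day 5 values were -0.14 ± 0.08 (SE), adjusted p 0.312, in sgControl and -0.23 ± 0.08 (SE), adjusted p 0.0691, in sgRELA. Without the library that stands apart the sgRELA value was -0.23 ± 0.07 (SE), adjusted p 0.0288, a call. Whether CD3E differs from its neighbours in this respect was not tested.

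**Figure D4:**
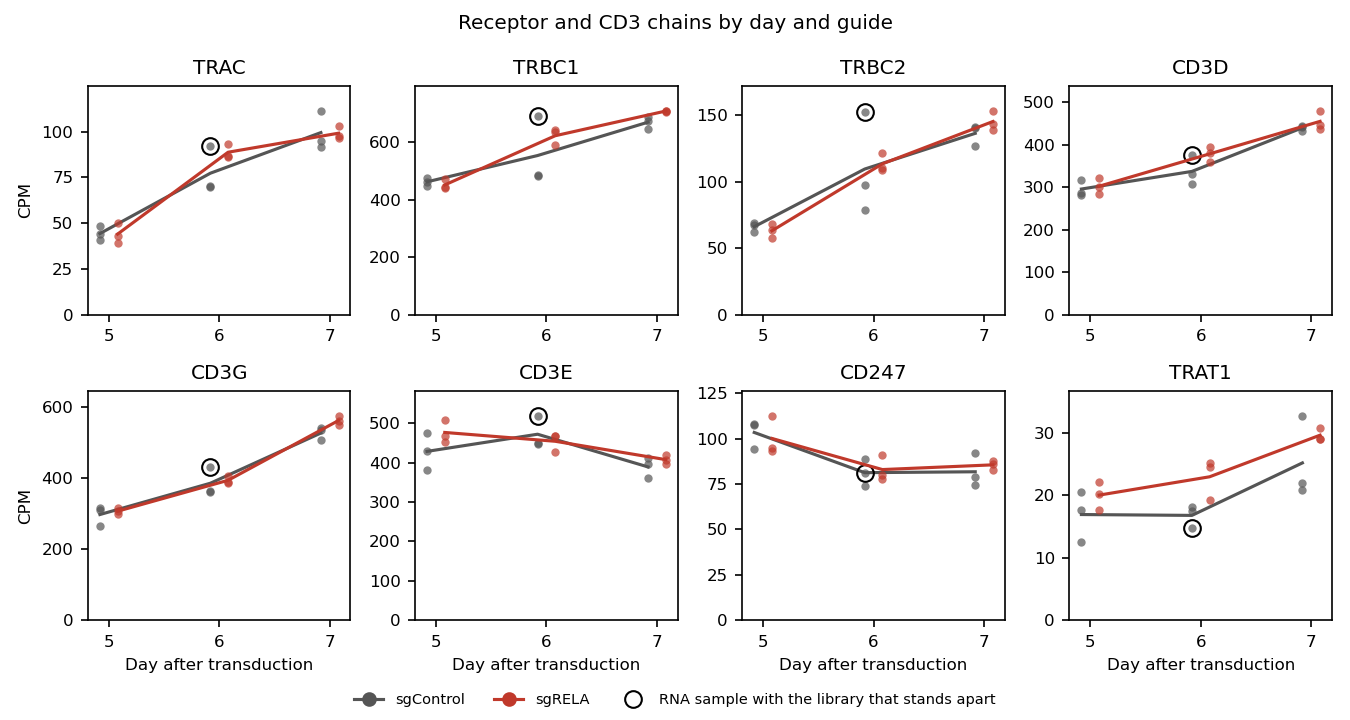
CPM of the 8 receptor chain genes on days 5, 6 and 7 in sgControl (grey) and sgRELA (red); points are the 3 RNA samples of a group, lines join group means, and a ring marks the RNA sample with the library that stands apart. TRAC, TRBC1, TRBC2, CD3D and CD3G end higher on day 7 in both guides, whereas CD3E and CD247 do not.

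CD247, whose zeta chain carries most of the phosphorylation motifs of the complex, fell in sgControl. It had 94.4, 108 and 108 CPM on day 5, 81.2, 73.7 and 88.9 CPM on day 6, and 78.6, 74.6 and 92.0 CPM on day 7 in sgControl. In sgRELA its values were 112, 92.9 and 94.9 CPM on day 5, 91.1, 77.6 and 80.1 CPM on day 6, and 86.2, 87.6 and 82.9 CPM on day 7. In both guides every day 5 sample was above every later sample, and days 6 and 7 overlapped. The fall from day 5 to day 7 was called in sgControl (-0.34 ± 0.11 (SE), adjusted p 0.0379) and missed the threshold in sgRELA (-0.23 ± 0.11 (SE), adjusted p 0.202). The sgControl fall from day 5 to day 6 was -0.35 ± 0.11 (SE), adjusted p 0.0431. Each of these sgControl calls was lost in 9 of 14 alternatives. The sgControl call on CD247 between days 5 and 7 was lost without sgControl replicate 1 (0.0662), sgControl replicate 2 (0.299), sgControl replicate 3 (0.0643), sgRELA replicate 2 (0.0589) or sgRELA replicate 3 (0.0646), adjusted p in parentheses. The sgControl call on it between days 5 and 6 was lost without sgControl replicate 1 (0.0593), sgControl replicate 2 (0.303), sgControl replicate 3 (0.0921), sgRELA replicate 1 (0.0524), sgRELA replicate 2 (0.0611) or sgRELA replicate 3 (0.0684), adjusted p in parentheses. TRAT1 rose in sgControl (0.57 ± 0.19 (SE), adjusted p 0.0484), with 20.9 to 32.7 CPM on day 7 and 12.6 to 20.5 CPM on day 5, and the sgRELA value of 0.57 ± 0.19 (SE), adjusted p 0.0512, missed the threshold but passed it without the library that stands apart, at 0.56 ± 0.19 (SE), adjusted p 0.0481. The sgControl call on TRAT1 was lost without sgControl replicate 1 (0.136), sgControl replicate 2 (0.387), sgRELA replicate 1 (0.0656), sgRELA replicate 2 (0.0706) or sgRELA replicate 3 (0.0621), adjusted p in parentheses.

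Of the 6 kinases, LCK, ZAP70 and CSK were higher on day 7 in both guides. LCK, the kinase that starts the signal (chr1:32251239-32286165, plus strand), had 571, 717 and 636 CPM on day 5, 749.6, 556 and 552 CPM on day 6, and 855, 874 and 942 CPM on day 7 in sgControl. The sgRELA samples had 665, 652 and 657 CPM on day 5, 713, 697 and 663 CPM on day 6, and 979, 976 and 1003 CPM on day 7. Every day 7 sample was above every earlier sample of its guide, and days 5 and 6 overlapped. Day 7 against day 5 gave 0.47 ± 0.09 (SE), adjusted p 0.000265, in sgControl and 0.58 ± 0.09 (SE), adjusted p 1.56e-05, in sgRELA. Against day 6 it gave 0.52 ± 0.09 (SE), adjusted p 4.26e-05, and 0.51 ± 0.09 (SE), adjusted p 7.11e-05. ZAP70 had 257, 339.5 and 299.9 CPM on day 5, 322, 261 and 281 CPM on day 6, and 401, 361 and 375 CPM on day 7 in sgControl. With sgRELA the values were 294, 297 and 276 CPM on day 5, 301, 285 and 268 CPM on day 6, and 364, 351 and 341 CPM on day 7. It too was highest on day 7 in every sample, with 0.34 ± 0.09 (SE), adjusted p 0.00808, in sgControl and 0.28 ± 0.09 (SE), adjusted p 0.0317, in sgRELA. The sgControl call on ZAP70 was lost without sgControl replicate 1 (0.139) or sgControl replicate 3 (0.056), adjusted p in parentheses. The sgRELA call on ZAP70 was lost without sgControl replicate 3 (0.0527), sgRELA replicate 1 (0.188), sgRELA replicate 2 (0.141) or sgRELA replicate 3 (0.171), adjusted p in parentheses.

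CSK, whose product phosphorylates the inhibitory tail of LCK, rose alongside it. It had 92.0, 107 and 79.7 CPM on day 5, 99.2, 82.5 and 91.8 CPM on day 6, and 150.1, 138 and 132 CPM on day 7 in sgControl. Its sgRELA values were 113, 87.8 and 104 CPM on day 5, 95.7, 85.7 and 81.4 CPM on day 6, and 136, 131 and 134 CPM on day 7. Day 7 stood clear of both earlier days in both guides. The day 7 against day 5 change was 0.59 ± 0.11 (SE), adjusted p 0.00035, in sgControl and 0.40 ± 0.11 (SE), adjusted p 0.0151, in sgRELA, and against day 6 it was 0.62 ± 0.11 (SE), adjusted p 0.000133, and 0.61 ± 0.11 (SE), adjusted p 0.000199. The sgRELA call on CSK was lost without sgRELA replicate 2 (0.206) or sgRELA replicate 3 (0.0842), adjusted p in parentheses. FYN, the second Src kinase of the complex, had 87.1, 81.5 and 66.2 CPM on day 5, 89.1, 88.1 and 89.0 CPM on day 6, and 69.9, 70.9 and 65.4 CPM on day 7 in sgControl. In sgRELA it had 75.5, 79.0 and 83.8 CPM on day 5, 79.1, 90.7 and 94.7 CPM on day 6, and 77.8, 68.5 and 84.3 CPM on day 7. In sgControl day 7 lay below day 6 and overlapped day 5, and in sgRELA all days overlapped. FYN was called only between days 6 and 7 of sgControl (-0.37 ± 0.11 (SE), adjusted p 0.0215). The sgControl call on FYN was lost without sgControl replicate 1 (0.0586), sgControl replicate 2 (0.0702) or sgControl replicate 3 (0.144), adjusted p in parentheses. PRKCQ was called only between days 5 and 6 of sgRELA, where it rose by 0.59 ± 0.12 (SE), adjusted p 0.00103, and lost that call without sgRELA replicate 3 (adjusted p 0.0803). TXK was called in no comparison, and its 3 day 5 samples of sgRELA held 74, 4 and 68 counts.

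**Figure D5:**
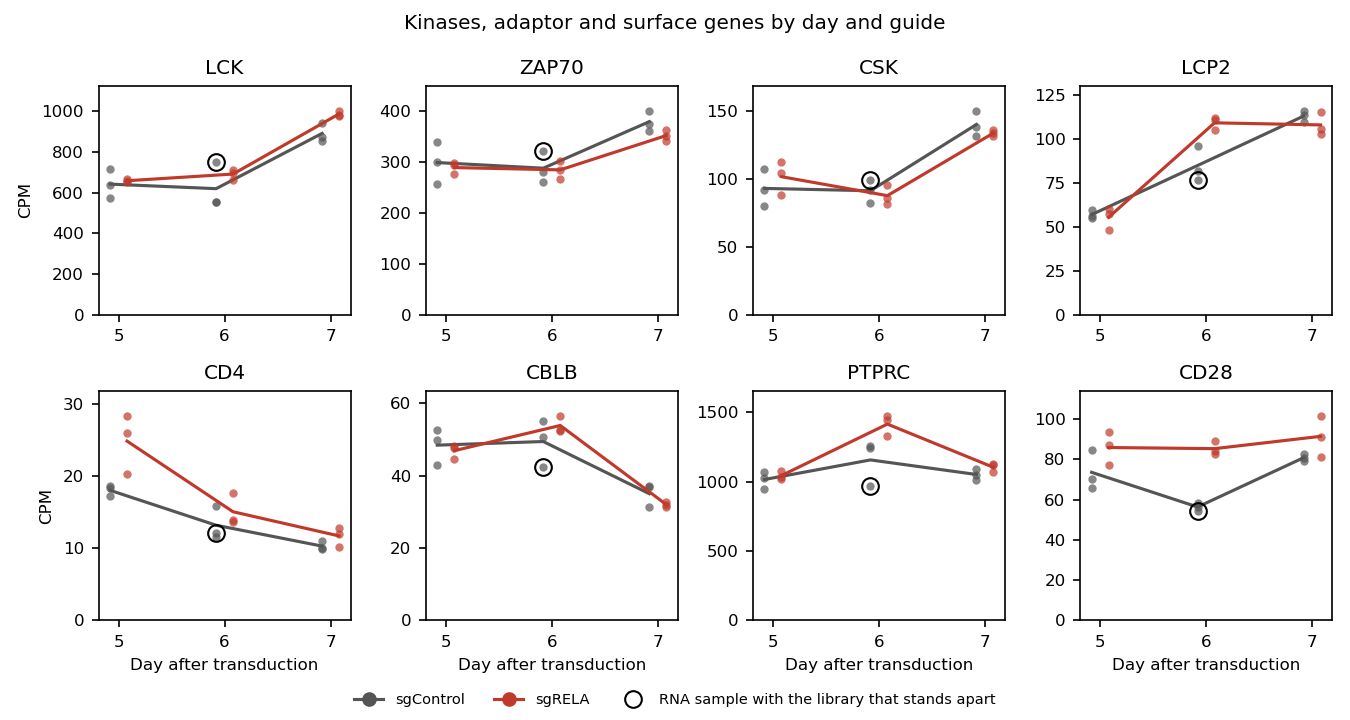
CPM of 8 kinase, adaptor, regulator and surface genes on days 5, 6 and 7 in sgControl (grey) and sgRELA (red), with the 3 RNA samples of a group as points, group means joined by lines and a ring on the RNA sample with the library that stands apart. LCK, ZAP70 and CSK rise between days 6 and 7, LCP2 rises from day 5, CD4 falls, and CD28 is apart between the guides on day 6.

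Among the 11 adaptors and exchange factors, LCP2 was called between days 5 and 7 in both guides. SLP-76, its product, is the scaffold that ZAP70 phosphorylates together with LAT. LCP2 (chr5:170246237-170298227, minus strand) had 56.2, 59.4 and 55.0 CPM on day 5, 76.7, 95.9 and 81.6 CPM on day 6, and 109, 116 and 113 CPM on day 7 in sgControl. The sgRELA samples had 48.3, 60.3 and 57.4 CPM on day 5, 105, 111 and 111 CPM on day 6, and 102, 106 and 115 CPM on day 7. Day 5 was lowest in every sample of both guides, and on day 6 all 3 sgRELA samples already lay within or near their day 7 range while all 3 sgControl samples lay in between. Day 7 against day 5 gave 0.99 ± 0.11 (SE), adjusted p 6.71e-08, in sgControl and 0.96 ± 0.11 (SE), adjusted p 1.12e-07, in sgRELA. The day 6 against day 5 changes were 0.58 ± 0.11 (SE), adjusted p 0.000443, and 0.98 ± 0.11 (SE), adjusted p 2.31e-07. The guide by day interaction had an unadjusted p of 0.0112 and an adjusted p of 1. LAT, the membrane scaffold, had 52.1, 60.9 and 52.4 CPM on day 5, 68.3, 65.3 and 49.3 CPM on day 6, and 63.1, 64.3 and 49.3 CPM on day 7 in sgControl. With sgRELA the values were 55.4, 57.2 and 49.2 CPM on day 5, 73.8, 65.9 and 56.8 CPM on day 6, and 70.2, 60.9 and 61.1 CPM on day 7. All days overlapped in sgControl, and in sgRELA day 7 lay above day 5, but LAT was called in no comparison, with 0.09 ± 0.14 (SE), adjusted p 0.746, in sgControl and 0.25 ± 0.13 (SE), adjusted p 0.273, in sgRELA between days 5 and 7. Of the rest, PAG1 fell between days 5 and 7 in sgRELA (-0.56 ± 0.16 (SE), adjusted p 0.0211) and between days 6 and 7 in sgControl (-0.50 ± 0.16 (SE), adjusted p 0.0352). Its sgRELA call was lost without sgRELA replicate 2 (adjusted p 0.13) or sgRELA replicate 3 (0.195), and over the 14 alternatives the value ran from -1.03 to -0.15. The sgControl call was lost without sgControl replicate 2 (adjusted p 0.194) or sgControl replicate 3 (0.093).

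Between days 5 and 6, 12 members were called in sgControl, 5 higher and 7 lower, against 8.87% of all tested genes, 3.29% higher and 5.58% lower. Lower on day 6 were GRB2, the adaptor that brings SOS1 to LAT (-0.30 ± 0.09 (SE), adjusted p 0.0382), SH2D1A (-0.29 ± 0.09 (SE), adjusted p 0.0335), NFATC3 (-0.30 ± 0.09 (SE), adjusted p 0.0295), PTPN22 (-0.44 ± 0.14 (SE), adjusted p 0.0423), CD1D (-0.63 ± 0.16 (SE), adjusted p 0.00841), CD28 (-0.39 ± 0.11 (SE), adjusted p 0.0251) and CD247. The 5 higher were TRAC, TRBC2, CD3G (0.37 ± 0.08 (SE), adjusted p 0.00146), LCP2 and UBASH3B (0.29 ± 0.09 (SE), adjusted p 0.0413). In sgRELA 12 were called too, 11 higher and 1 lower, against 6.91%, 2.57% and 4.34%. TRAC, TRBC2, CD3G, LCP2 and UBASH3B were called higher in both guides, which is 41.7% of each list. Of the sgRELA calls, PTPRC rose by 0.44 ± 0.07 (SE), adjusted p 0.000152, TRBC1 by 0.46 ± 0.09 (SE), adjusted p 0.000924, TRBC2 by 0.85 ± 0.14 (SE), adjusted p 0.000182, CD3D by 0.32 ± 0.08 (SE), adjusted p 0.00775, and CD3G by 0.36 ± 0.08 (SE), adjusted p 0.00248. Without the library that stands apart, PTPRC and PLCG1 were called in sgControl as well and NFATC3 and PTPN22 were not, so the count stayed at 12, with PTPRC at 0.32 ± 0.05 (SE), adjusted p 9.5e-05. Of all tested genes 9.29% were then called in sgControl. With any 1 replicate left out, TRAC, TRBC2 and LCP2 kept the sgControl call and TRAC, TRBC1, TRBC2, PTPRC, LCP2 and UBASH3B the sgRELA call. The sgControl count was 4 without sgControl replicate 3, 6 without sgRELA replicate 1 and 7 without sgRELA replicate 3, and the sgRELA count was 7 without sgRELA replicate 1, 7 without replicate 2 and 6 without replicate 3.

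Between days 6 and 7, 18 members were called in sgControl, 14 higher and 4 lower, against 14.6% of all tested genes, 8.25% higher and 6.31% lower. In sgRELA 9 were called, 5 higher and 4 lower, against 12.2%, 7.21% and 5.02%. CD3D, CD3G, LCK, ZAP70, CSK and CBLB were called in both guides, 33.3% of the sgControl list and 66.7% of the sgRELA list. ZAP70 rose by 0.40 ± 0.09 (SE), adjusted p 0.00167, in sgControl and by 0.31 ± 0.09 (SE), adjusted p 0.019, in sgRELA. CD3D rose by 0.38 ± 0.08 (SE), adjusted p 0.000602, and 0.27 ± 0.08 (SE), adjusted p 0.0208, and CD3G by 0.45 ± 0.08 (SE), adjusted p 5.93e-05, and 0.51 ± 0.08 (SE), adjusted p 1.06e-05. In sgControl 3 of the 7 genes that had fallen on day 6 rose again by day 7: CD28 (0.52 ± 0.11 (SE), adjusted p 0.00104), CD1D (0.55 ± 0.16 (SE), adjusted p 0.0138) and NFATC3 (0.32 ± 0.09 (SE), adjusted p 0.0102). Also higher were LCP2 (0.41 ± 0.10 (SE), adjusted p 0.00566), GRAP2 (0.35 ± 0.12 (SE), adjusted p 0.0438), RASGRP1 (0.27 ± 0.09 (SE), adjusted p 0.037), TRAT1 (0.58 ± 0.19 (SE), adjusted p 0.0397) and TRBC1 (0.27 ± 0.09 (SE), adjusted p 0.0351), and CD3E was lower (-0.28 ± 0.08 (SE), adjusted p 0.0175). In sgRELA PTPRC fell by 0.36 on the log2 scale (adjusted p 0.000706), after its rise on day 6, and CD5 (-0.38 ± 0.13 (SE), adjusted p 0.0475) and UBASH3B (-0.30 ± 0.09 (SE), adjusted p 0.0264) were lower. Without the library that stands apart, the sgControl count was 20: TRBC2, PTPRC, GRB2, SIT1 and PTPN6 were added, and CD3E, TRAT1 and RASGRP1 were lost. The sgRELA count was then 11, with TRBC1 and TRBC2 added. Among all tested genes 15.3% in sgControl and 13.3% in sgRELA were called in these fits. With any 1 replicate left out, CD3D, CD3G, CD28, LCK, ZAP70 and CSK kept the sgControl call and CD3G, PTPRC, LCK, CSK and CBLB the sgRELA call. The sgControl count was 9 without sgControl replicate 2 and 8 without replicate 3, and the sgRELA count was 5 without any 1 of the sgRELA replicates.

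Of the 9 surface receptors, CD4 fell in both guides. It had 18.6, 17.2 and 18.3 CPM on day 5, 12.1, 11.6 and 15.9 CPM on day 6, and 11.1, 9.84 and 9.99 CPM on day 7 in sgControl. In sgRELA it had 26.0, 20.3 and 28.4 CPM on day 5, 17.6, 13.9 and 13.7 CPM on day 6, and 12.02, 12.9 and 10.2 CPM on day 7. Every day 7 sample lay below every day 5 sample of its guide, and day 6 lay between them with no overlap. The day 7 against day 5 change was -0.81 ± 0.19 (SE), adjusted p 0.00431, in sgControl and -1.09 ± 0.19 (SE), adjusted p 0.000179, in sgRELA, and the sgRELA fall was called by day 6 (-0.72 ± 0.19 (SE), adjusted p 0.0173), a call lost without sgRELA replicate 1 (adjusted p 0.0718), sgRELA replicate 2 (0.0727) or sgRELA replicate 3 (0.286). CD69 rose in sgRELA, from 6.08, 3.52 and 5.74 CPM on day 5 to 10.6, 10.0 and 12.2 CPM on day 7, with no overlap (1.10 ± 0.30 (SE), adjusted p 0.0145). In sgControl it had 4.91, 7.08 and 2.68 CPM and 7.66, 7.79 and 5.61 CPM on these days, which overlapped (0.52 ± 0.31 (SE), adjusted p 0.314). The sgRELA call on CD69 was lost without sgRELA replicate 1 (0.0566), sgRELA replicate 2 (0.155) or sgRELA replicate 3 (0.0984), adjusted p in parentheses. CD2, CD6 and CD7 were called in no comparison of days, and ranged over 33.0 to 43.2 CPM, 37.6 to 68.2 CPM and 23.3 to 36.7 CPM in the 18 RNA samples.

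Of the 5 genes of the NF-kB branch and NFAT, MALT1 and NFATC3 were called between some days. MALT1 fell in sgRELA from 43.6, 55.9 and 47.9 CPM on day 5 to 30.0, 28.2 and 27.9 CPM on day 7, without overlap (-0.78 ± 0.15 (SE), adjusted p 0.000419). In sgControl it went from 51.3, 43.7 and 38.4 CPM to 35.7, 36.0 and 40.0 CPM, which overlapped (-0.26 ± 0.15 (SE), adjusted p 0.3). BCL10, the partner of MALT1, was called in no comparison (-0.28 ± 0.17 (SE), adjusted p 0.322, in sgControl and -0.39 ± 0.17 (SE), adjusted p 0.134, in sgRELA between days 5 and 7). NFATC1 and NFATC2 were called in none either, and spanned 25.0 to 42.3 CPM and 46.0 to 67.8 CPM.

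Negative regulators moved in both directions. CBLB, a ubiquitin ligase that restrains receptor signalling, had 52.5, 42.9 and 49.8 CPM on day 5, 42.3, 55.2 and 50.8 CPM on day 6, and 36.8, 37.1 and 31.2 CPM on day 7 in sgControl. The sgRELA samples had 44.7, 47.7 and 48.2 CPM on day 5, 52.7, 52.4 and 56.5 CPM on day 6, and 32.7, 31.4 and 32.0 CPM on day 7. Day 7 was lowest in every sample of both guides, and days 5 and 6 overlapped in sgControl. Day 7 against day 5 gave -0.47 ± 0.13 (SE), adjusted p 0.0122, in sgControl and -0.55 ± 0.13 (SE), adjusted p 0.00332, in sgRELA, and against day 6 -0.50 ± 0.13 (SE), adjusted p 0.00618, and -0.75 ± 0.13 (SE), adjusted p 7.99e-05. UBASH3B, a phosphatase that acts on ZAP70, was higher on day 6 than on day 5 in both guides, by 0.50 ± 0.09 (SE) in sgRELA (adjusted p 0.000531), and higher on day 7 than on day 5 in sgControl (0.32 ± 0.09 (SE), adjusted p 0.0176). This last call was lost without sgControl replicate 1 (adjusted p 0.14) or sgControl replicate 3 (0.081), and the sgControl call on day 6 without sgControl replicate 1 (adjusted p 0.222), sgControl replicate 3 (0.243), sgRELA replicate 1 (0.066), sgRELA replicate 2 (0.0751) or sgRELA replicate 3 (0.0609). UBASH3A, its relative, was higher in sgRELA on day 6 (0.54 ± 0.14 (SE), adjusted p 0.0107) and day 7 (0.47 ± 0.14 (SE), adjusted p 0.0179) than on day 5. The day 7 call was lost without sgRELA replicate 1 (adjusted p 0.086), sgRELA replicate 2 (0.158) or sgRELA replicate 3 (0.116), and the day 6 call without sgRELA replicate 1 (adjusted p 0.0536), sgRELA replicate 2 (0.146) or sgRELA replicate 3 (0.132). PTPN6, the phosphatase SHP-1, was higher on day 7 in sgControl (0.52 ± 0.13 (SE), adjusted p 0.00632) and on day 6 in sgRELA (0.44 ± 0.13 (SE), adjusted p 0.0382), where the call was lost without sgRELA replicate 1 (adjusted p 0.276), sgRELA replicate 2 (0.155) or sgRELA replicate 3 (0.185). Its sgControl call was lost without sgControl replicate 3 (0.261), adjusted p in parentheses. The sgControl values of PTPN6 were 61.1, 65.2 and 42.6 CPM on day 5 and 80.8, 72.6 and 89.5 CPM on day 7, which did not overlap.

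In all, 32 of the 44 genes were called in at least 1 of the 6 comparisons of days, against 28.2% of all tested genes, and 12 in none: CD2, CD6, CD7, TXK, LAT, SOS1, VAV1, PLCG1, SIT1, BCL10, NFATC1 and NFATC2. Comparisons of days within a guide share samples, so these calls are not independent of each other. The share of all tested genes was not matched for level, and nearly all members lay above the median tested gene. How far level accounts for the count of members called was not tested. Among the 11 genes called between days 5 and 7 in both guides, TRAC, CD3D, CD3G and LCP2 kept the call in both guides under all 14 alternatives. TRBC1, TRBC2 and LCK lost it only when the first library of each RNA was used alone, and CD4 only when one set of libraries was used alone. ZAP70 and CBLB in both guides and CSK in sgRELA lost it also without single replicates. For CBLB the sgControl call was lost without sgControl replicate 1 (0.0511) or sgControl replicate 3 (0.192), adjusted p in parentheses. The sgRELA call on CBLB was lost without sgRELA replicate 2 (0.0608) or sgRELA replicate 3 (0.0565), adjusted p in parentheses. The sgRELA count between days 5 and 7 was 9 without sgRELA replicate 2 and 9 without replicate 3, and the sgControl count was 10 to 14 over the 6 left-out replicates.

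The wider pathway was read from 80 further genes of receptor signalling, costimulation, calcium, Ras and NFAT, of which 78 passed the filter on low counts. Across days the guide called 1 of them, PTPN2, a phosphatase that acts on LCK and on JAK kinases, higher in sgRELA by 0.51 ± 0.05 (SE), adjusted p 6.81e-06. It was also the one gene of the 78 called on each day, by 0.50 ± 0.09 (SE), adjusted p 0.00767, on day 5, 0.51 ± 0.09 (SE), adjusted p 0.00517, on day 6 and 0.50 ± 0.09 (SE), adjusted p 0.0102, on day 7. Of all tested genes the guide called 0.363% across days, and 0.138%, 0.214% and 0.0907% on days 5, 6 and 7. Between days 5 and 7, 22 of the 78 were called in sgControl, 9 higher and 13 lower, and 17 in sgRELA, 7 higher and 10 lower. Among all tested genes 13% were called in sgControl, 6.65% higher and 6.36% lower, and 12.4% in sgRELA, 6.35% higher and 6.06% lower. SLA, an adaptor that promotes receptor turnover, rose by 1.21 ± 0.11 (SE), adjusted p 5.54e-09, in sgControl and 0.83 ± 0.11 (SE), adjusted p 2.91e-06, in sgRELA. ITPR2, a calcium channel of the endoplasmic reticulum, rose by 0.44 ± 0.09 (SE), adjusted p 0.000813, and 0.44 ± 0.09 (SE), adjusted p 0.000738. NFATC4 (-1.04 ± 0.12 (SE), adjusted p 2.76e-07, and -0.98 ± 0.12 (SE), adjusted p 6.52e-07) and NFAT5 (-0.49 ± 0.09 (SE), adjusted p 0.000231, and -0.61 ± 0.09 (SE), adjusted p 9.91e-06) were lower in both guides. The median log2 fold change of the 78 was -0.10 in sgControl and -0.07 in sgRELA. Between days 5 and 6, 6 rose and 10 fell in sgControl and 2 rose and 7 fell in sgRELA, and between days 6 and 7, 11 rose and 9 fell in sgControl and 7 rose and 9 fell in sgRELA. For all tested genes the shares between days 5 and 6 were 3.29% higher and 5.58% lower in sgControl and 2.57% and 4.34% in sgRELA, and between days 6 and 7 they were 8.25% and 6.31% in sgControl and 7.21% and 5.02% in sgRELA.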

How the data were processed

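The deposited table holds whole-number counts per gene for 36 libraries. Per the submitters' processing notes, cutadapt 1.18, STAR 2.7.9a and the build GRCh38 were used, with no roles given. The counting tool, annotation and strand setting are not given in the sources used here. Symbols came from a table that matched 57693 of 74628 identifiers, and lengths from GENCODE v29.

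Both libraries of an RNA sample were added, giving 18 sums, and for the guide across days also the 3 days, giving 6. Genes passing filterByExpr (minimum count 10) were scaled with TMM and tested by edgeR 4.0.16 quasi-likelihood F tests in R 4.3.3, with Benjamini-Hochberg adjustment over all of them, 27553 for 18 sums, with 12 residual degrees of freedom, and 28888 for 6. Values are log2 differences with SE. On simulated counts, 200 genes among 27553 were changed by guide and another 200 by day. The changed genes were drawn from well-counted ones only, and most changes were larger than 0.5 on the log2 scale. Of them 84.5% were recovered for the guide across days, 71.5% for the guide on day 5 and 73.5% for day 7 against day 5 in sgControl. At a change of 0.5 on the log2 scale the shares were 52%, 32% and 30%. All simulated samples were drawn independently. The shares for the guide across days may therefore not hold if same-numbered samples of different days came from 1 transduction.

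The members, gene lists and rules were chosen with earlier results of these data known. Named were the receptor chains, LCK, FYN, ZAP70, LAT and LCP2, every member called in a comparison, and the 3 smallest p values where none was. Alternatives were DESeq2 1.42.0, its size factors, no filter, each library set alone, the replicate number as a block, day terms, and leaving out replicates or libraries. Further genes named with values were chosen after their values were seen, and some genes of the lists are not reported here.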

Additional observations from a re-analysis of the deposited data

Results flagged for a closer look

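Each of the 44 genes was searched in each of the 6 groups of 6 libraries for a highest or lowest library whose gap to its nearest neighbour, as a share of the whole range, exceeded Dixon's critical value for 6 libraries. Of 264 searches 26 passed, and chance passes about 1 in 20. The CPM searched were those of single libraries, without TMM factors. Of the 26, 16 lay in library 1 of sgControl day 6 replicate 1. In that library the highest values of the group were those of TRAC with 126 CPM (68.6 to 81.2 CPM in the others), TRBC1 with 1113 CPM (468 to 521 CPM in the others), TRBC2 with 249 CPM (69.3 to 112 CPM in the others), CD3D with 472 CPM (296 to 357 CPM in the others), CD3E with 705 CPM (450.4 to 474 CPM in the others), CD3G with 549 CPM (353 to 406 CPM in the others) and CD5 with 112 CPM (55.9 to 63.6 CPM in the others). Also highest there were CD6 with 111 CPM (36.7 to 57.0 CPM in the others), LCK with 1084 CPM (558 to 623 CPM in the others), ZAP70 with 522 CPM (229 to 293 CPM in the others), CSK with 147 CPM (79.5 to 98.8 CPM in the others), GRB2 with 215 CPM (118 to 130.0 CPM in the others), SIT1 with 85.0 CPM (30.0 to 43.0 CPM in the others) and PTPN6 with 112 CPM (56.3 to 70.8 CPM in the others). The lowest were PTPRC with 591 CPM (1241 to 1350.0 CPM in the others) and SOS1 with 44.95 CPM (80.9 to 98.1 CPM in the others).

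The other 10 were spread over other libraries. They were TRAC highest in sgRELA day 6 replicate 1 library 2 at 107 CPM (86.3 to 91.1 CPM), CD4 highest in sgRELA day 6 replicate 1 library 2 at 21.5 CPM (13.1 to 15.5 CPM), CD28 highest in sgControl day 5 replicate 3 library 2 at 99.9 CPM (62.6 to 75.5 CPM), CD28 highest in sgRELA day 7 replicate 2 library 2 at 113 CPM (78.2 to 91.0 CPM) and GRAP2 lowest in sgRELA day 7 replicate 2 library 1 at 71.9 CPM (90.9 to 96.1 CPM). The rest were SOS1 highest in sgControl day 5 replicate 2 library 2 at 90.6 CPM (63.8 to 72.6 CPM), SH2D1A highest in sgControl day 7 replicate 1 library 1 at 136 CPM (106 to 116 CPM), BCL10 highest in sgControl day 5 replicate 3 library 1 at 49.9 CPM (31.1 to 37.2 CPM), MALT1 highest in sgRELA day 6 replicate 2 library 2 at 61.9 CPM (30.9 to 37.7 CPM) and NFATC1 highest in sgRELA day 5 replicate 2 library 1 at 47.2 CPM (25.6 to 30.3 CPM).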

How the results depend on the processing

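Of 1247 checks of 89 results on single members, most of them followed because they were called, 984 kept their direction and side of the threshold, 261 were no longer called and 2 reversed. DESeq2, and its size factors in edgeR, changed 0 of 89. The reversals were CD69 between guides on day 7, -0.065 with library set 2 alone against 0.64, and TRBC1 between days 6 and 7 of sgControl, -0.0093 with library set 1 alone against 0.27. With library set 1 alone the members called were 0 across days, 0 for the guide on day 6, 0, 5 and 1 in sgControl for days 6 against 5, 7 against 5 and 7 against 6, and 2, 7 and 1 in sgRELA. Library set 2 alone gave 0 across days, 2 for the guide on day 6, neither of them CD28, 6 for days 6 against 5 and 11 for days 7 against 6 in sgControl. For the guide on day 6, DESeq2 called 4, the fit without the 2 libraries of lowest gene detection 3, and leaving out the library that stands apart 2. Without the filter on low counts 7 were called for days 6 against 5 in sgControl. Leaving out 1 replicate at a time gave 0 to 1 members for the guide across days, 0 to 3 on day 6, 4 to 8, 10 to 14 and 8 to 17 for the day comparisons of sgControl in the same order, and 6 to 13, 9 to 20 and 5 to 13 for those of sgRELA. The shares of all tested genes in these day comparisons with 1 replicate left out are not reported here. The causes were not tested.

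Between guides on 1 day, same-numbered samples had correlations of deviations from -0.00805 to 0.0746 over 9 pairs. Within a guide on different days they had -0.143 to 0.0497 over 18 pairs, and differently numbered samples -0.11 to 0.172 over 36 pairs. Such values cannot show whether same-numbered samples came from 1 transduction. With the replicate block 2 members were called across days, against 1, and 8 for days 6 against 5 in sgControl, against 12. Over all genes, the guide across days called 105, DESeq2 224, no filter on low counts 221, and library sets 1 and 2 alone 42 and 49. On days 5, 6 and 7 edgeR called 38, 59 and 25 genes and DESeq2 73, 126 and 53, with 68 and 55 on days 5 and 7 without the filter. Leaving out 1 replicate gave 66 to 79 across days. DESeq2 called 2883 genes against 1904 between days 5 and 6 of sgRELA. Library set 1 alone gave 430, 820 and 1879 genes in the day comparisons of sgControl, against 2445, 3585 and 4012, and 196, 669 and 961 in those of sgRELA, against 1904, 3420 and 3368. For the interaction edgeR called 1, DESeq2 12 and edgeR without the filter 24. TXK, the lowest member, had 4 to 159 counts per RNA sample.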

Other observations

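The variable segments of the receptor, which are no members, were read beside the constant genes, a choice made after their values were seen. TRBV12-3, a beta variable segment, took 85.8% of all TRBV counts, and TRAV8-4, an alpha variable segment, 86.3% of all TRAV counts. TRBV12-4, a near copy of TRBV12-3 whose reads may be shared with it, took 1.26%. On days 5, 6 and 7 TRBV12-3 averaged 90.0 ± 10.6, 121 ± 23.0, 129.7 ± 4.77 CPM with sgControl and 85.9 ± 7.04, 133 ± 11.2, 136 ± 3.04 CPM with sgRELA (SD, n = 3). Day 7 against day 5 gave 0.53 ± 0.11 (SE), adjusted p 0.0014, in sgControl and 0.66 ± 0.11 (SE), adjusted p 9.48e-05, in sgRELA. TRAV8-4 went through 32.9 ± 9.03, 55.4 ± 17.7, 57.8 ± 1.65 CPM with sgControl and 26.8 ± 3.64, 53.0 ± 6.54, 57.8 ± 3.67 CPM with sgRELA over the same days. Its differences were 0.81 ± 0.18 (SE), adjusted p 0.00169, and 1.11 ± 0.18 (SE), adjusted p 4.64e-05. Both segments were higher on day 7 in both guides, as were TRAC, TRBC1 and TRBC2. Between the guides across days TRBV12-3 differed by 0.04 ± 0.06 (SE), adjusted p 0.968, and TRAV8-4 by -0.10 ± 0.08 (SE), adjusted p 0.884.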
